A study of Mus musculus with 231 samples.

Results

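The miR-30 family was followed in the blood of mice in which the leukemogenic Cbfb-MYH11 (CM) fusion gene was switched on. Its 7 members here, mmu-miR-30a-5p, mmu-miR-30b-5p, mmu-miR-30c-5p, mmu-miR-30d-5p, mmu-miR-30e-5p, mmu-miR-30a-3p and mmu-miR-30e-3p, were chosen by name and not by any measured value. They were 7 of 1863 mature miRNAs in the raw counts of the training cohort, 7 of 1895 in its normalized table and 7 of 1817 in the normalized table of the validation cohort. MicroRNA sequencing was done on total RNA of peripheral blood mononuclear cells (PBMC), the lymphocytes and monocytes of blood. The training cohort gave 53 libraries of 7 CM mice (4 female, 3 male) and 76 libraries of 7 Ctrl mice (2 female, 5 male). Month 0 was before induction, and later samples were drawn up to month 10. The validation cohort gave 60 libraries of 10 CM mice and 42 of 6 Ctrl mice, at sampling points labelled 1 to 7 and L, a letter that the labels leave unexplained.

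CM mice were C57BL/6 conditional knock-in mice (Cbfb56M/+/Mx1-Cre) with the genotype label CHW. Mice of both arms received poly(I:C) intraperitoneally at 14 mg/kg, in 7 doses given every other day from an age of 6 to 8 weeks. Ctrl mice were age-matched littermates with the genotype labels HW, CW or WT. The labels describe them as without the transgene, whereas the study's methods name Cbfb56M/+ littermates, which hold the uninduced allele, among the controls. The labels leave the codes unexplained, so which Ctrl mice held it is not known here. Mx1-Cre is driven by an interferon-responsive promoter that is active in many tissues, so the model does not restrict the fusion gene to blood cells. Each library came from 1 mouse at 1 time, so replicates were separate mice. CM mice left the series at different times. The last CM libraries were drawn at month 4 from mice 3338 and 3357, at month 6 from mouse 3341, at the time labelled T6p5 (read as month 6.5) from mouse 3334, at month 7 from mouse 3336, at month 9 from mouse 3370 and at month 10 from mouse 3368.

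A miRNA gene is transcribed as a longer RNA from which a hairpin is cut, and either arm of that hairpin can become a mature miRNA, named 5p or 3p. A mature miRNA guides silencing complexes to messenger RNAs, mainly through pairing of its seed, bases 2 to 8. The 5p arms of the miR-30 family share a seed and are therefore thought to share many targets, whereas the 3p arms have seeds of their own. The family is broadly expressed, including in blood cells, and has been studied in cell differentiation. The mature sequences below (RefSeq, GRCm38.p6) show which of the printed members could be told apart by reads and which could hardly be. Those of miR-30b-5p and miR-30d-5p were missing from the reference used. Whether reads of these members could be mistaken for those of others was not compared. The seed is in capitals.

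mmu-miR-30a-5p: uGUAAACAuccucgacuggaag
mmu-miR-30e-5p: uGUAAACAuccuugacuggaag
mmu-miR-30c-5p: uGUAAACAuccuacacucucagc
mmu-miR-30a-3p: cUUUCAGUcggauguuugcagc
mmu-miR-30e-3p: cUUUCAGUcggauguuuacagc

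The 5p members printed had the seed GUAAACA, and both 3p members had UUUCAGU. Counting from 1 at the 5′ end, miR-30a-5p and miR-30e-5p differed at 1 of 22 bases (C13U), and miR-30a-3p and miR-30e-3p at 1 of 22 (G18A). miR-30a-5p and miR-30c-5p differed at 5 of 22 compared bases (C13A, G14C, G18C, G19U and A20C). A read of miR-30a-5p with a single mismatch at base 13 can therefore be assigned to miR-30e-5p, depending on how the counting treats mismatches, so levels of this pair are uncertain to that extent. The hairpins of these near-identical members are shown with both mature arms in capitals.

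Mir30a: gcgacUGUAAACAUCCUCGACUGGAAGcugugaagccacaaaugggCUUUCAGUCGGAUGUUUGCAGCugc
Mir30e: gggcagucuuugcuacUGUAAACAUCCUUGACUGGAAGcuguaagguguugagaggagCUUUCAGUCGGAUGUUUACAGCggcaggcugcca

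The genes lie in pairs. Mir30a (chr1:23272269-23272339, plus strand) was 19362 bases from Mir30c-2 (chr1:23291701-23291784, plus strand), and no annotated gene overlapped either. Mir30e (chr4:120772606-120772697, minus strand) was 2984 bases from Mir30c-1 (chr4:120769534-120769622, minus strand), and both lay in an intron of Nfyc, which encodes a subunit of the transcription factor NF-Y, on the same strand. Mir30b (chr15:68337415-68337510, minus strand) was 3698 bases from Mir30d (chr15:68341208-68341289, minus strand). Mature miR-30c-5p is the product of either Mir30c-1 or Mir30c-2, and its counts cannot be divided between them. All positions are in GRCm38.p6, and the intron is that of the GENCODE annotation of NCBIM37.

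Total counts of the training libraries ranged from 1792809 to 7958411, with a median of 4437464. The lowest was the month 2 library of Ctrl mouse 3349. In the validation cohort the 12 libraries of point 5 held 1645456 to 5445215 reads, whereas the other 90 held 1744 to 76906, with a median of 20808. Training levels are therefore given first. They are counts per 1000000 counts, with library sizes scaled by TMM (a trimmed mean of log ratios), called CPM below, and come from the raw counts unless the deposited CPM, the authors' own normalized table, is named. Changes were tested on the raw counts with edgeR's quasi-likelihood test and are given as log2 fold changes with their standard error (SE). A miRNA was called, that is, taken as changed, when its p-value adjusted by Benjamini-Hochberg over all miRNAs tested was under 0.05, and every adjusted p below without another name is from this test. The deposited CPM was also turned back into whole reads and tested in the same way, and these are called recovered reads.

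miR-30e-5p was the most abundant member. Its level in the training libraries ranged from 10740 to 34394 CPM with a median of 23062, it was the highest member in every one of them, and its median ranked 12 among all miRNAs. miR-30d-5p followed at 2837 to 13725 CPM (median 9002), and it was below miR-30e-5p and above miR-30b-5p in all training libraries. miR-30b-5p had 829 to 7340 CPM with a median of 3434. Below these, the order was less fixed. miR-30a-5p (316 to 11993 CPM, median 2091) was below miR-30b-5p in 94 libraries and above miR-30c-5p (131.8 to 8227 CPM, median 1593) in only 61. Of the 3p arms, miR-30e-3p had 279 to 1197 CPM (median 652), and miR-30a-3p had 13.8 to 435 CPM (median 53.8), below miR-30e-3p in every library. Together the members held between 2.43% and 5.57% of all counts in Ctrl libraries (median 4.29%) and between 2.94% and 4.89% in CM libraries (median 4.01%).

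These levels depended on the table. The deposited CPM put miR-30c-5p first, with a median of 6845 CPM. It was the highest member except in 10 libraries led by miR-30d-5p and 2 led by miR-30e-5p, and it was followed by miR-30d-5p at 4692 and miR-30e-5p at 4055. On average the deposited level over that from raw counts was 0.177 for miR-30e-5p, 0.277 for miR-30a-5p, 0.53 for miR-30d-5p and 2.27 for miR-30c-5p. It was close to 1 for the others, at 1.11 for miR-30b-5p, 1.07 for miR-30a-3p and 1.04 for miR-30e-3p. Across the libraries, both tables gave nearly the same course for miR-30a-3p (Pearson r of log2(CPM + 1) of 1.0), miR-30b-5p (0.99), miR-30e-3p (0.98) and miR-30a-5p (0.97). The course differed more for miR-30d-5p (0.82) and miR-30e-5p (0.68), and it was unrelated for miR-30c-5p (0.09). The median over 298 miRNAs was 0.98, and 3 of them had a lower r than miR-30c-5p.

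The raw counts of miR-30c-5p fell into separate ranges, 131.8 to 2440 CPM in 68 libraries and 3629 to 8227 CPM in 61, with no library between. Both ranges held libraries of all 14 mice, of all 7 values of an unexplained G number in the sample titles and of 11 of the 12 training times. The lower range held 27 CM and 41 Ctrl libraries, the upper 26 CM and 35 Ctrl. In the deposited CPM the median was 6895 in the lower group and 6534 in the upper, and total counts had medians of 4491230 and 4389860. What set the ranges apart was not tested. Results on miR-30c-5p, miR-30a-5p, miR-30d-5p and miR-30e-5p are therefore given below from both tables where these disagree.

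**Figure D1:**
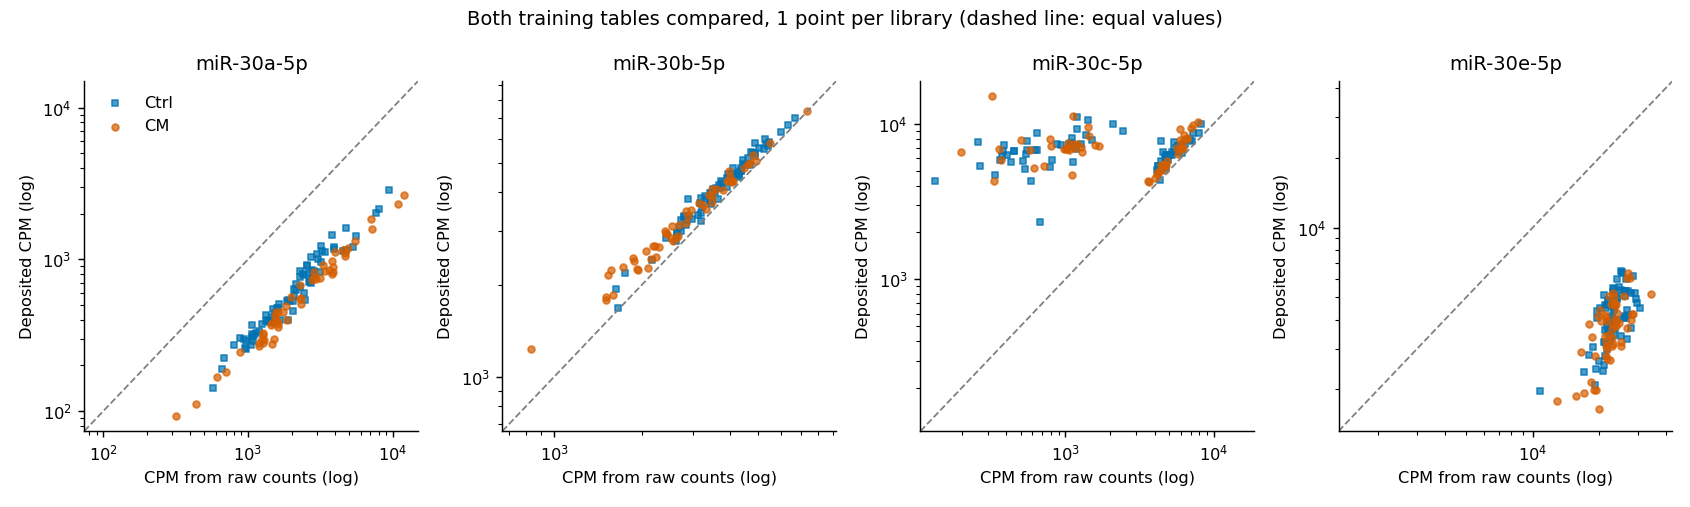
CPM from raw counts (x axis, log) against deposited CPM (y axis, log) for miR-30a-5p, miR-30b-5p, miR-30c-5p and miR-30e-5p, with 1 point per training library (circles CM, squares Ctrl) and a dashed line of equal values. miR-30b-5p lay near the line (r of 0.99), miR-30a-5p and miR-30e-5p lay below it, and miR-30c-5p formed separate clouds of 68 and 61 libraries along the x axis with about the same deposited level.

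Both arms of Mir30a followed miRNAs of red cells. Over the 53 CM and 76 Ctrl training libraries, the level of miR-30a-5p had a Pearson r of 0.92 with the summed CPM of 5 erythroid miRNAs (miR-451a, miR-144-3p, miR-144-5p, miR-486a-5p and miR-486b-5p), at 0.92 in CM and 0.94 in Ctrl libraries, and miR-30a-3p had an r of 0.85. All r are on log2(CPM + 1) and are given as descriptions, since the points share mice and library composition. miR-30b-5p had an r of -0.2 with the erythroid sum and of 0.51 with the summed miRNAs of mature lymphocytes (miR-150-5p, miR-150-3p and miR-342-3p), at 0.61 in CM and 0.47 in Ctrl libraries. It was not alone in this, since miR-30e-3p had 0.45 with the lymphocyte sum, at 0.18 in CM and 0.69 in Ctrl libraries. With the erythroid sum, miR-30e-5p had 0.32, at 0.55 in CM and 0.16 in Ctrl libraries. The miRNAs closest to each member were sought among 325 other miRNAs with a mean of at least 10 CPM. Those of both Mir30a arms all belonged to the erythroid sum, so they repeat the r above and add no separate evidence. For miR-30a-5p they were miR-451a (r of 0.91), miR-486b-5p (0.88) and miR-144-5p (0.85), and for miR-30a-3p they were miR-486b-5p (0.89), miR-144-5p (0.86) and miR-486a-5p (0.85). miR-451a and miR-144 come from a locus that is expressed in erythroid cells.

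The other members had different neighbours, none of them on the erythroid, lymphocyte, myeloid or vessel wall lists. For miR-30b-5p they were miR-350-3p (0.87), miR-33-3p (0.84) and miR-374b-5p (0.74), and for miR-30e-3p they were miR-142a-5p, miR-26b-5p and let-7g-5p (0.83 each, and 0.60, 0.83 and 0.85 in the deposited CPM). For miR-30e-5p they were miR-106b-5p (0.72), miR-101b-3p (0.71) and miR-15a-5p (0.70), but in the deposited CPM these pairs had only 0.40, 0.49 and 0.29. For miR-30d-5p they were miR-20a-5p (0.60), miR-10a-5p (0.57) and miR-155-5p (0.57), with 0.32, 0.65 and 0.74 in the deposited CPM. No miRNA came close to miR-30c-5p in the raw counts, where its nearest neighbours, miR-92a-3p and miR-29b-3p, reached 0.20. In the deposited CPM these pairs had 0.53 and 0.09. Within the family, miR-30a-5p and miR-30a-3p had an r of 0.90 with each other, whereas the arms of Mir30e, miR-30e-5p and miR-30e-3p, had an r of 0.09. In bulk blood RNA, fewer cells of a type and less RNA per cell cannot be told apart. PBMC preparations should hold few red cells, yet no marker miRNA of the erythroid, lymphocyte, myeloid or vessel wall lists was at 0 in any training library.

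**Figure D2:**
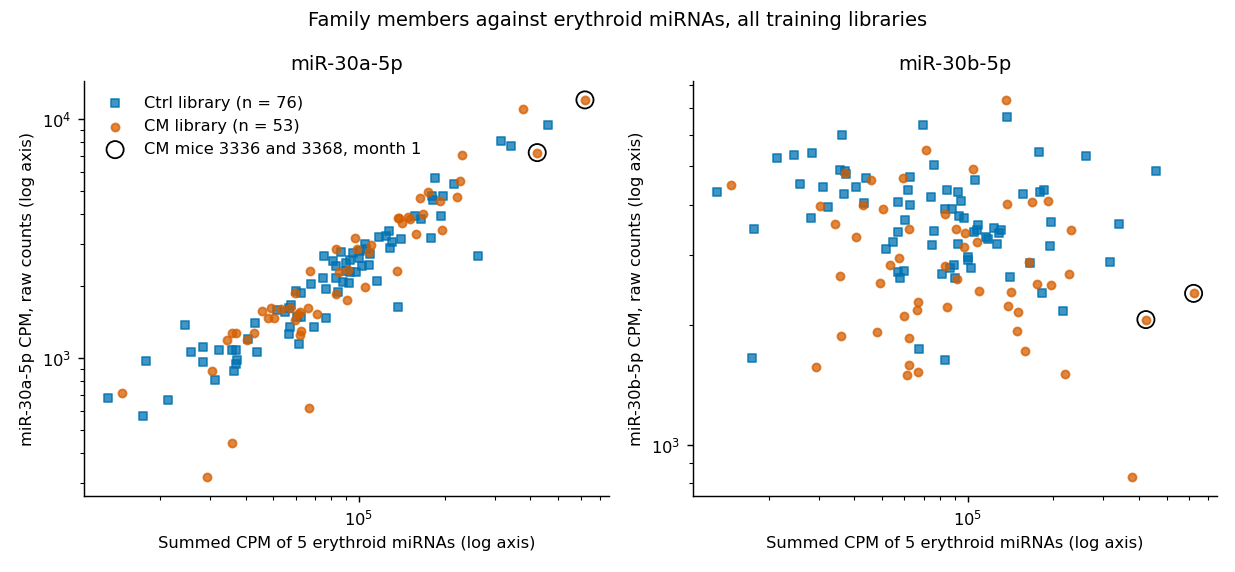
Summed CPM of 5 erythroid miRNAs (x axis, log) against CPM of miR-30a-5p (left) and miR-30b-5p (right, y axes log), with 1 point per training library (circles, 53 CM; squares, 76 Ctrl). miR-30a-5p rose along the erythroid sum in both arms (r of 0.92 in CM, 0.94 in Ctrl), and the ringed month 1 libraries of CM mice 3336 and 3368 lay at its upper end, whereas miR-30b-5p showed no such course (r of -0.2).

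At month 0, before induction, no member was called. Of all miRNAs tested, 0.209% (1 of 478) were called in the raw counts and 0% of 473 in the recovered reads, and 62 of the 478 had an unadjusted p under 0.05. Only miR-30c-5p differed at an unadjusted p under 0.05. It ranged from 1059 to 6654 CPM (median 4833) in CM and from 1030 to 2440 (median 1372) in Ctrl mice, with 5 of 7 CM libraries above all Ctrl libraries. The log2 fold change was 1.48 (SE 0.38, adjusted p = 0.24 in edgeR), and DESeq2 called it (log2 fold change 1.46, adjusted p = 0.0337). In the deposited CPM the arms lay the other way round, with 5426 to 9538 (median 6884) in CM and 6880 to 9965 (median 8427) in Ctrl mice, and the recovered reads gave a log2 fold change of -0.25, which was not called. The difference thus followed the separate ranges of the raw counts described above. The other members had log2 fold changes from -0.10 (miR-30b-5p) to 0.21 (miR-30a-3p).

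At month 1, after induction, 3 of the 7 members were called, with both arms of Mir30a higher and miR-30b-5p lower in CM mice. miR-30a-3p had 50.4 to 435 CPM (median 75.9) in CM and 20.9 to 46.6 (median 34.5) in Ctrl mice. All 7 CM libraries were above all 7 Ctrl libraries. Such a separation in the higher direction was seen for 3.18% of miRNAs tested (15 of 472). The log2 fold change was 2.18 (SE 0.52, adjusted p = 0.0105 in edgeR). miR-30a-5p had 1444 to 11993 CPM (median 1866) in CM and 880 to 1482 (median 1074) in Ctrl mice, and 6 of 7 CM libraries were above all Ctrl libraries. Its log2 fold change was 1.79 (SE 0.46, adjusted p = 0.0128). miR-30b-5p had 2062 to 4674 CPM (median 2399) in CM and 3703 to 6338 (median 4714) in Ctrl mice, and 6 of 7 CM libraries were below all Ctrl libraries, the exception being mouse 3334 at 4674. Its log2 fold change was -0.83 (SE 0.20, adjusted p = 0.0105).

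The remaining members were not called at month 1. miR-30e-5p, with the same seed as miR-30a-5p and 1 base of difference, had 19866 to 34394 CPM (median 22471) in CM and 21100.6 to 25412 (median 24041) in Ctrl mice, with a log2 fold change of -0.02 (SE 0.13). miR-30d-5p, the genomic neighbour of miR-30b-5p, had medians of 8416 CPM in CM and 8321 in Ctrl mice and a log2 fold change of 0.04 (SE 0.11). The arms overlapped for both. miR-30e-3p had a log2 fold change of 0.24 (SE 0.11, adjusted p = 0.13) and was called by DESeq2 alone (0.33, adjusted p = 0.00716). miR-30c-5p had one of -0.89 (SE 0.80). Its deposited medians were 6845 CPM in CM and 7611 in Ctrl mice.

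The 3 called members stood against a background in which 27.5% of miRNAs tested were called (130 of 472), and 31.4% in the recovered reads. The median log2 fold change was 0.04 over the 7 members and -0.10 over all miRNAs tested. The median over all miRNAs lay at -0.18 with raw library sizes and at 0.00 with the size factors of DESeq2, and the 3 calls were kept under both. The recovered reads gave the same 3 calls, at 2.27 (SE 0.53, adjusted p = 0.00629) for miR-30a-3p, 1.43 (SE 0.45, adjusted p = 0.0235) for miR-30a-5p and -0.73 (SE 0.17, adjusted p = 0.00629) for miR-30b-5p. limma on the deposited CPM did not call miR-30a-5p (0.96, adjusted p = 0.0816).

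Erythroid miRNAs moved with these members. All 5 were higher in CM mice at month 1 and called, with a median log2 fold change of 2.46, and their summed level had 53345 to 621976 CPM in CM (median 67074) and 28288 to 69644 in Ctrl mice (median 36888). None of 3 lymphocyte and none of 2 myeloid miRNAs (miR-223-3p and miR-223-5p) was called, and of 3 vessel wall and endothelial miRNAs (miR-143-3p, miR-145a-5p and miR-126a-3p) only miR-126a-3p was, at 1.68. Here miR-143-3p was at -0.57 and miR-145a-5p at -0.21. The study reports that CM raises miR-126 in blood and in hematopoietic stem and progenitor cells. miR-126a-3p is therefore not read as a vessel marker here. The erythroid sum was highest in CM mouse 3336 (621976 CPM) and CM mouse 3368 (422853 CPM), and it was 53345 to 90885 in the other 5 CM mice. The same mice had the highest miR-30a-5p, 11993 and 7216 CPM, and the highest miR-30a-3p, 435 and 364 CPM. They also had the lowest lymphocyte sums, 19351 and 18367 CPM, against 42104 to 65700 in the other CM mice and 33715 to 74320 in Ctrl mice.

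Without mice 3336 and 3368 the directions were kept at smaller size. miR-30a-3p was called at 0.91 (adjusted p = 0.0115), miR-30a-5p at 0.71 (adjusted p = 0.0147) and miR-30b-5p at -0.67 (adjusted p = 0.0328) in the raw counts. In the recovered reads without these mice, miR-30a-3p at 0.92 (adjusted p = 0.00499) and miR-30b-5p at -0.61 (adjusted p = 0.0241) were called, and miR-30a-5p at 0.34 (adjusted p = 0.13) was not. When the G number was added to the fit of month 1, no member was called (1.18, 0.92 and -0.61 for miR-30a-3p, miR-30a-5p and miR-30b-5p, adjusted p of 0.207, 0.25 and 0.175) and 10 of 472 miRNAs were. A fit over all training libraries with the G number called all 3, at 2.03, 1.68 and -0.80, and 13.3% of all miRNAs tested. That fit held several libraries of each mouse without a term for the mouse, so it counted them as independent. The part of red cells in the differences of both Mir30a arms was not tested.

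**Figure D3:**
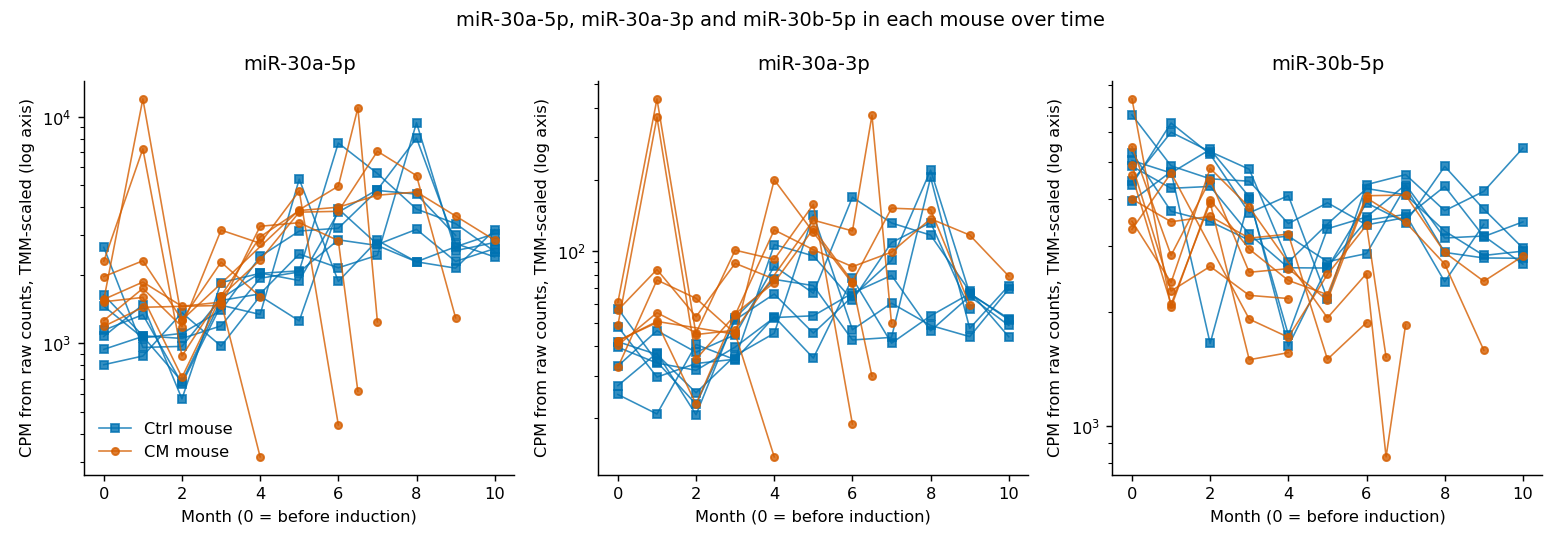
CPM from raw counts (y axes, log) of miR-30a-5p, miR-30a-3p and miR-30b-5p against the month after induction (x axis), with 1 line per mouse (circles, 7 CM; squares, 7 Ctrl). At month 1 both Mir30a arms peaked in CM mice 3336 and 3368 (11993 and 7216 CPM of miR-30a-5p), miR-30a-5p fell to 316 to 615 CPM in the last libraries of CM mice 3338, 3341 and 3334, and miR-30b-5p ended low in CM mice.

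At months 2 to 6 no member was called in the raw counts. The background fell as well, from 13.5% of miRNAs tested at month 2 and 22% at month 3 to 0.837% at month 4, 0% at month 5 and 0% at month 6. In the recovered reads it was 22.2%, 27.8%, 2.11%, 0% and 0%. At an unadjusted p under 0.05, edgeR had 1, 3, 0, 2 and 0 members at these months, and DESeq2 called 2 at month 3 and none at the other months. Among all miRNAs tested, the share below that unadjusted limit was 31.6% at month 2, 37.6% at month 3 and 16.9% at month 4. It was 21.6% at month 5 and 7.0% at month 6. In the same order, DESeq2 called 21%, 31.6%, 4.18%, 3.56% and 0% of all miRNAs tested.

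At month 2 the arms overlapped for each member. miR-30a-3p had 22.9 to 63.6 CPM (median 45.2) in CM and 20.7 to 40.8 (median 31.8) in Ctrl mice, a log2 fold change of 0.53 (SE 0.24, adjusted p = 0.15). miR-30e-5p had 16623 to 21701 CPM (median 18860) in CM mice. In Ctrl mice it had a median of 25972, and its lowest library, the shallow one of mouse 3349, had 10740. Its log2 fold change was -0.29 (SE 0.20, adjusted p = 0.32), and the recovered reads called it at -0.51 (adjusted p = 0.0462). Of the 5 erythroid miRNAs, 2 were higher in CM mice and called at month 2.

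At month 3 the members called at month 1 lay on the same sides. miR-30b-5p had 1499 to 3795 CPM (median 2553) in CM and 3103 to 4782 (median 3990) in Ctrl mice, with 5 of 7 CM libraries below all Ctrl libraries and a log2 fold change of -0.53 (SE 0.19, adjusted p = 0.0554 in edgeR). miR-30a-3p had 45 to 101.2 CPM (median 54.2) in CM and 35.2 to 52.8 (median 39.8) in Ctrl mice, with a log2 fold change of 0.62 (SE 0.22, adjusted p = 0.0569), and miR-30a-5p one of 0.49 (SE 0.20, adjusted p = 0.089). In the recovered reads miR-30a-3p (0.65, adjusted p = 0.0268), miR-30b-5p (-0.49, adjusted p = 0.0312) and miR-30d-5p (-0.32, adjusted p = 0.0395) were called. Of the 5 erythroid miRNAs, 4 were higher in CM mice and called at this month (median log2 fold change 0.88). miR-150-5p, 1 of the 3 lymphocyte miRNAs, was lower and called (-0.70, adjusted p = 0.0222), with miR-150-3p at 0.02 and miR-342-3p at -0.22, not called. miR-223-3p, 1 of the 2 myeloid miRNAs, was higher and called (0.74, adjusted p = 0.0122), as was miR-126a-3p (2.44, adjusted p = 0.00363).

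At month 4 miR-30a-5p ran among CM mice from 316 CPM in the last library of mouse 3338 to 3288, against 1342 to 2420 in Ctrl mice. At month 5 the arms of Mir30a lay higher in CM mice again, with 3410 to 4708 CPM (median 3858) of miR-30a-5p against 1258 to 5308 (median 2091) in Ctrl mice. The highest value was that of Ctrl mouse 3335. The erythroid sum lay the same way, with 138458 to 220506 CPM (median 150723) in CM and 56849 to 216326 (median 90139) in Ctrl mice, and its highest Ctrl value was also that of mouse 3335. No erythroid miRNA was called at month 5 (median log2 fold change 0.90). The log2 fold changes were 0.63 (SE 0.29, adjusted p = 0.23) for miR-30a-5p, 0.84 (SE 0.30, adjusted p = 0.17) for miR-30a-3p and -0.49 (SE 0.17, adjusted p = 0.15) for miR-30b-5p. The running numbers of Ctrl mouse 3335 and CM mouse 3334 change places in the sample titles between months 5 and 6. Without both mice, all 3 were called at month 5, at 0.95 (adjusted p = 0.0297), 1.11 (adjusted p = 0.0302) and -0.64 (adjusted p = 0.0327). The background without them was 10.4% of miRNAs tested (53 of 511), and 13.2% in the recovered reads. At month 6 the medians of miR-30a-5p were 3828 CPM in 5 CM and 3224 in 7 Ctrl mice, and those of miR-30b-5p were 3403 and 3576.

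Counts summed per mouse over months 1 to 4, which weigh each mouse once, gave the same 3 members. CM mouse 3334 had no library at month 2 and CM mouse 3336 none at month 4, so their sums cover fewer months. miR-30a-3p was higher in CM mice by a log2 fold change of 1.13 (SE 0.25, adjusted p = 0.00439), miR-30a-5p by 0.86 (SE 0.23, adjusted p = 0.0124), and miR-30b-5p was at -0.45 (SE 0.13, adjusted p = 0.0176). Here 28.9% of all miRNAs tested were called (201 of 696), and 34.9% in the recovered reads, which gave 1.15, 0.62 and -0.40 and the same calls. limma on the deposited CPM did not call miR-30a-5p here either (0.34, adjusted p = 0.14). The median over the members was -0.07 and that over all miRNAs -0.01. All 5 erythroid miRNAs were higher and called (median 1.37). Of the 3 lymphocyte miRNAs, miR-150-5p was lower and called, at -0.60 (adjusted p = 0.0183), whereas miR-342-3p at -0.19 (adjusted p = 0.41) and miR-150-3p at 0.04 (adjusted p = 0.83) were not. Neither myeloid miRNA was called, and miR-126a-3p was higher and called, at 2.01. Without mice 3336 and 3368 the values were 0.78 (adjusted p = 0.0192), 0.49 (adjusted p = 0.0374) and -0.47 (adjusted p = 0.0316), and in the recovered reads miR-30a-5p was no longer called (0.25, adjusted p = 0.23). The call of miR-30b-5p was lost without CM mouse 3334 or Ctrl mouse 3339, and without mice 3334 and 3335 together it was -0.37 (adjusted p = 0.0615). Months 1 to 4 are also the months tested singly above, so these results share libraries. The sums of CM mice 3338 and 3357 also hold their last libraries, drawn at month 4 and compared with month 0 below.

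**Figure D4:**
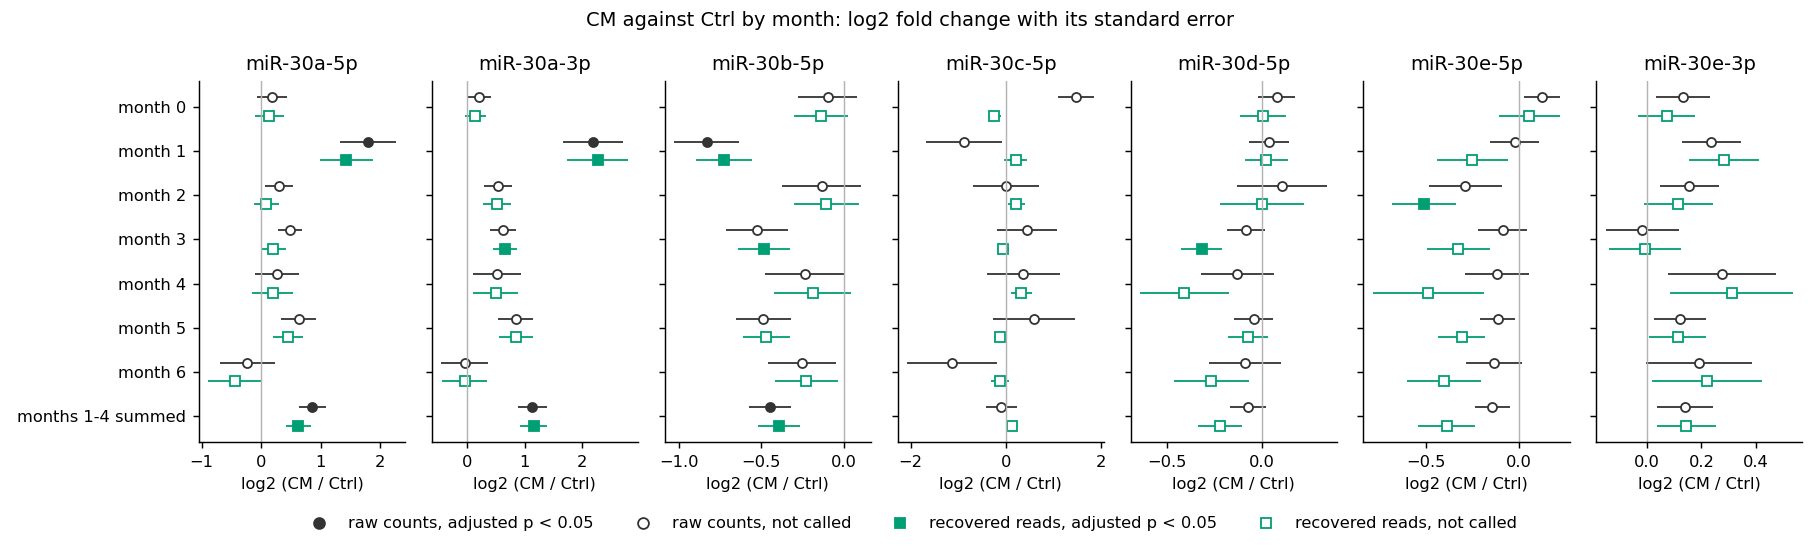
Log2 fold change of CM over Ctrl (x axes) with its standard error (bars) for each member at months 0 to 6 and summed over months 1 to 4 (rows), from raw counts (circles) and recovered reads (squares), filled where called. miR-30a-5p, miR-30a-3p and miR-30b-5p were called at month 1 and in the sums, only the squares were filled for miR-30e-5p at month 2 (-0.51) and miR-30a-3p, miR-30b-5p and miR-30d-5p at month 3 (0.65, -0.49 and -0.32), and miR-30c-5p had wide bars in the raw counts (SE 0.80 at month 1).

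Within CM mice, month 1 was compared with month 0 of the same 7 mice. miR-30a-3p went from 32.7 to 61.1 CPM (median 42.2) at month 0 to 50.4 to 435 (median 75.9), and it was higher in 7 of 7 mice. Its log2 fold change was 1.82 (SE 0.52, adjusted p = 0.0378). miR-30b-5p went from a median of 4614 to 2399 CPM, was lower in 6 of 7 mice and changed by -0.73 (SE 0.21, adjusted p = 0.0395). miR-30a-5p was higher in 7 of 7 mice and had 1.35 (SE 0.47, adjusted p = 0.07). Of all miRNAs tested 12.7% were called, and 18% in the recovered reads. With the mouse as a replicate block no member was called, at 1.20 (adjusted p = 0.096) for miR-30a-3p and -0.74 (adjusted p = 0.104) for miR-30b-5p, and without mice 3336 and 3368 none was either. Of the erythroid miRNAs 2 of 5 were higher and called (median 1.91), and of the other marker lists only miR-126a-3p was, at 1.45.

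In Ctrl mice, which received the same injections, no member was called between month 0 and month 1, and none had an unadjusted p under 0.05 in edgeR (DESeq2 called none as well). Only 0.63% of all miRNAs tested were called (3 of 476), and 0.426% in the recovered reads. miR-30a-3p had a log2 fold change of -0.24 (SE 0.21), miR-30a-5p one of -0.36 (SE 0.24) and miR-30b-5p one of -0.06 (SE 0.14). The difference between the arms in this change was called for miR-30a-3p, at 2.11 (SE 0.58, adjusted p = 0.0252), and miR-30a-5p, at 1.76 (SE 0.56, adjusted p = 0.049), and not for miR-30b-5p, at -0.65 (SE 0.26, adjusted p = 0.12). Erythroid miRNAs moved with them. In the same fit 3 of 5 were called and higher, miR-144-5p at 4.28 (adjusted p = 0.00799), miR-486a-5p at 3.64 (adjusted p = 0.00653) and miR-486b-5p at 2.84 (adjusted p = 0.0129). In Ctrl mice from month 0 to month 1 they had -2.17, -1.69 and -0.89, none of them called. miR-126a-3p was also called in the difference, at 2.50, and no lymphocyte or myeloid miRNA was. The background was 8.46% in the raw counts and 13% in the recovered reads. With the mouse as replicate block no member was called (miR-30a-3p at 1.45, adjusted p = 0.0896), and without mice 3336 and 3368 none was. Of 12 alternative settings for the difference between the arms, 7 called miR-30a-3p and only 2 called miR-30a-5p. This difference uses the same libraries of months 0 and 1 as the comparisons above.

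The last library of each CM mouse was then set against its month 0 library. miR-30b-5p was lower in 7 of 7 mice, with 1523 to 2817 CPM (median 1857) in the last libraries and 3315 to 7340 (median 4614) at month 0, and the groups did not overlap. A separation in this direction was seen for 4.71% of miRNAs tested (21 of 446). The log2 fold change was -1.17 (SE 0.20, adjusted p = 0.000931), at -1.15 (adjusted p = 0.00665) with the mouse as replicate block, and at -1.04 (adjusted p = 0.0011) in the recovered reads. It was called in all 16 settings tried. The background was high in this comparison, with 39% of all miRNAs called (174 of 446) and 45% in the recovered reads.

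The fall of miR-30b-5p was not shared by its neighbour. miR-30d-5p had 8253 to 11389 CPM (median 10571) in the last libraries and 8230 to 9735 (median 8490) at month 0, a log2 fold change of 0.37 (SE 0.16, adjusted p = 0.0771) that DESeq2 called (adjusted p = 0.0153). In the recovered reads it was at -0.20 (adjusted p = 0.28), so its direction differed between the tables. The other arm of Mir30b, miR-30b-3p, was higher and called, at 1.48 (SE 0.36, adjusted p = 0.00577). miR-30e-5p was lower in 7 of 7 mice, with 15713 to 23079 CPM (median 19951) against 20307 to 27507 (median 22838), but its log2 fold change was -0.12 (SE 0.15, adjusted p = 0.55). In the deposited CPM it had 1648 to 3390 (median 1982) against 3067 to 6351 (median 4662), and the recovered reads called it at -1.02 (SE 0.22, adjusted p = 0.00242), so the call rested on the table used.

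Neither arm of Mir30a was called in this comparison. miR-30a-5p had 316 CPM in mouse 3338, 437 in mouse 3341, 615 in mouse 3334, 1245 in mouse 3336, 1298 in mouse 3370, 1607 in mouse 3357 and 2854 in mouse 3368. It was lower than at month 0 in 6 of 7 mice, with a log2 fold change of -0.35 (SE 0.38, adjusted p = 0.48). miR-30a-3p had 0.10 (SE 0.34, adjusted p = 0.81) and was higher in 3 of 7 mice. The mice with the least miR-30a-5p, 3338, 3341 and 3334, also had the most miR-126a-3p, with 1861, 4584 and 2552 CPM, where the other 4 had 218 to 1412. Of the 3 vessel wall and endothelial miRNAs only miR-126a-3p was called, at 3.95, and the median over this list was -0.58. The study reports miR-126 as raised by CM. Of the 3 lymphocyte miRNAs, miR-150-5p at -0.88 (adjusted p = 0.0483) and miR-342-3p at -0.97 (adjusted p = 0.0362) were lower and called, and miR-150-3p was not called. Of the 2 myeloid miRNAs, miR-223-3p was lower and called, at -1.60 (adjusted p = 0.0093), and miR-223-5p was not called. The lymphocyte sum had 9550 to 58452 CPM (median 25443) in the last libraries and 29726 to 69658 (median 55901) at month 0. The erythroid sum had medians of 62334 and 62191 CPM, with miR-451a lower (-0.91) and miR-486a-5p (1.17) and miR-486b-5p (0.92) higher. Over the list of 5 erythroid miRNAs, 2 were called and higher, 1 was called and lower, and the median was 0.57. The part of these cell types in the change of miR-30b-5p was not tested.

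In Ctrl mice both arms of Mir30a were higher at month 6 than at month 0. Between month 0 and month 6, miR-30a-5p went from 806 to 2655 CPM (median 1144) to 1878 to 7663 (median 3224), and it was higher in 7 of 7 mice. Its log2 fold change was 1.39 (SE 0.33, adjusted p = 0.00759), at 1.35 (adjusted p = 0.0169) with the mouse as replicate block. miR-30a-3p rose as well, in 7 of 7 mice, by 0.95 (SE 0.29, adjusted p = 0.0325), but with the block the call was lost (0.87, adjusted p = 0.0642). miR-30b-5p (-0.41, SE 0.15, adjusted p = 0.0594) and miR-30e-3p (-0.38, SE 0.13, adjusted p = 0.0555) were lower in 7 of 7 mice and not called. The background was 20.5% of miRNAs tested, and 21.9% in the recovered reads. The erythroid sum had 31175 to 260882 CPM (median 61694) at month 0 and 83346 to 341190 (median 128837) at month 6, with 2 of 5 erythroid miRNAs called and higher. Of the lymphocyte miRNAs, miR-342-3p was lower and called (-1.08, adjusted p = 0.00268), and miR-150-3p (-0.60, adjusted p = 0.0844) and miR-150-5p (-0.48, adjusted p = 0.14) were not called. Both myeloid miRNAs were lower and called, miR-223-3p at -1.36 (adjusted p = 3.44e-05) and miR-223-5p at -0.43 (adjusted p = 0.0427). The part of these cell types in the changes of the members was not tested.

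The difference between the arms in these late changes, CM last library minus Ctrl month 6, each against month 0, was called for miR-30a-5p and miR-30b-5p. It was -1.78 (SE 0.51, adjusted p = 0.0211) for miR-30a-5p, -2.01 (adjusted p = 0.0214) with the mouse as replicate block and -2.0 (adjusted p = 0.00892) in the recovered reads, and it was called in all 10 settings tried. For miR-30b-5p it was -0.79 (SE 0.24, adjusted p = 0.0328), -0.78 (adjusted p = 0.0589) with the block and -0.63 (adjusted p = 0.0499) in the recovered reads. Only 4 of 10 alternative settings called it. miR-30a-3p was not called, at -0.89 (SE 0.45, adjusted p = 0.15). The recovered reads also called miR-30e-5p (-0.90, adjusted p = 0.0111) and miR-30e-3p (0.68, adjusted p = 0.0274). The background was 14.8%, and 16.9% in the recovered reads. In this difference 1 of 3 vessel wall and endothelial miRNAs was called and higher, no erythroid, lymphocyte or myeloid miRNA of the lists was called, and the median over the erythroid list was -0.41. The median erythroid sum went from 62191 CPM at month 0 to 62334 in the last CM libraries. In Ctrl mice it went from 61694 at month 0 to 128837 at month 6. The part of red cells in the difference of miR-30a-5p was not tested. The CM libraries compared were drawn at months 4 to 10 and the Ctrl libraries at month 6, so time and arm are not fully matched here.

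**Figure D5:**
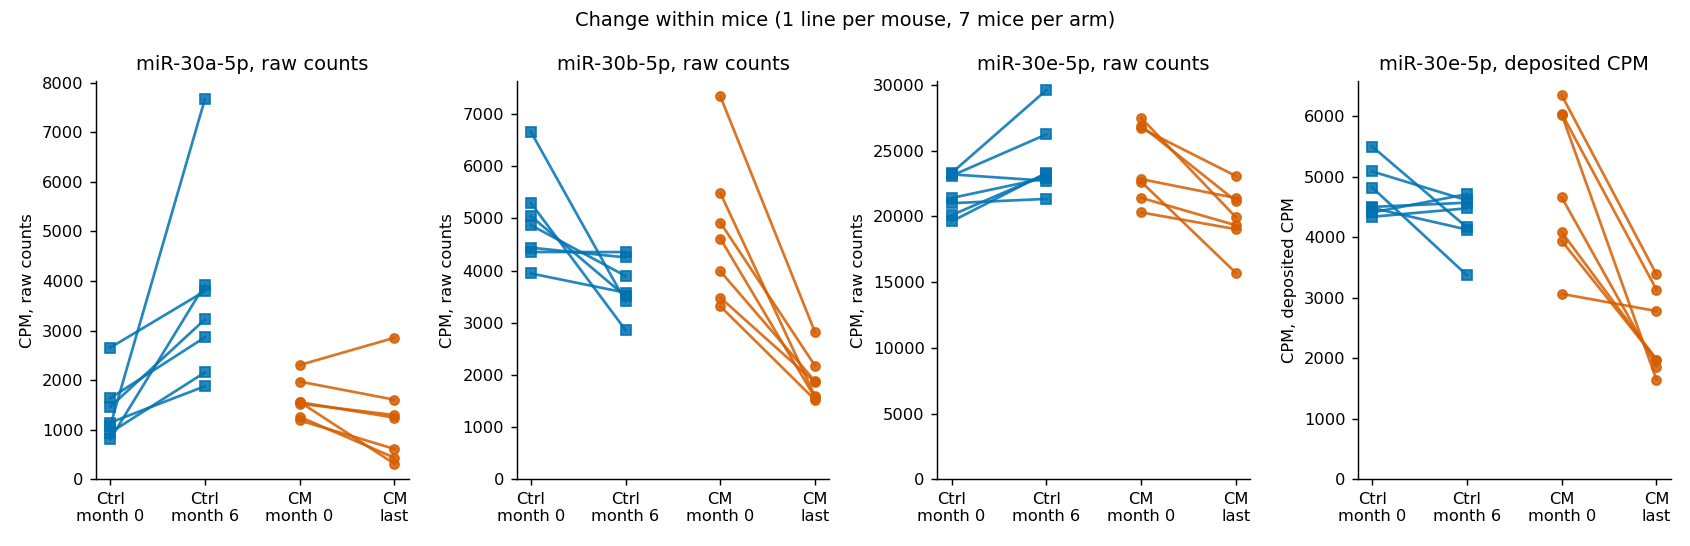
CPM (y axes, from 0) of miR-30a-5p, miR-30b-5p and miR-30e-5p from raw counts, and of miR-30e-5p from the deposited CPM, at month 0 and month 6 in Ctrl mice (squares) and at month 0 and in the last library in CM mice (circles), with 1 line per mouse and 7 mice per arm. miR-30a-5p rose in 7 of 7 Ctrl mice and was lower in 6 of 7 CM mice, miR-30b-5p fell in 7 of 7 CM mice, and miR-30e-5p fell further in the deposited CPM (medians 4662 to 1982) than in the raw counts (22838 to 19951).

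Ratios between members of 1 library do not depend on its scaling, and 4 of them were compared as means per mouse over months 1 to 4, with an exact two-sided permutation test over 7 CM and 7 Ctrl mice and adjustment over the 4 ratios. The log2 ratio of miR-30d-5p to its neighbour miR-30b-5p was 1.72 ± 0.32 (SD, n = 7) in CM and 1.29 ± 0.19 (SD, n = 7) in Ctrl mice, a difference of 0.43 (exact permutation test, adjusted p = 0.0233). It ranged from 1.33 to 2.28 in CM and from 0.95 to 1.58 in Ctrl mice, so the arms overlapped. The highest CM values were those of mice 3338 (2.28) and 3357 (1.99). Their month 4 libraries, used here, were also their last libraries compared above. The log2 ratio of miR-30e-5p to miR-30e-3p, the arms of 1 hairpin, was 4.79 ± 0.19 (SD, n = 7) in CM and 5.04 ± 0.14 (SD, n = 7) in Ctrl mice, a difference of -0.25 (exact permutation test, adjusted p = 0.0396). That of miR-30a-5p to miR-30a-3p was 4.76 ± 0.16 (SD, n = 7) against 4.94 ± 0.14 (SD, n = 7), a difference of -0.18 that was not past the threshold (exact permutation test, adjusted p = 0.066). miR-30e-5p to miR-30c-5p had 3.45 ± 0.83 (SD, n = 7) against 3.72 ± 0.62 (SD, n = 7), a difference of -0.27 (exact permutation test, adjusted p = 0.53).

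In the deposited CPM all 4 ratios differed, by -0.43 (exact permutation test, adjusted p = 0.00699) for the arms of Mir30a, -0.52 (0.0109) for those of Mir30e, 0.22 (0.0408) for miR-30d-5p to miR-30b-5p and -0.53 (0.00699) for miR-30e-5p to miR-30c-5p. Without mice 3334 and 3335 none of the 4 was past the threshold in the raw counts, where adjusted p was 0.0866 or more by the exact permutation test. The order of the arms was the same for each ratio in both settings.

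The rest of the family was rare. The 3p arms miR-30b-3p, miR-30c-1-3p, miR-30d-3p and miR-30c-2-3p had medians of 47.2, 27.9, 14.9 and 4.88 CPM. mmu-miR-384-5p, which has the same seed GUAAACA, had a count in only 10 training libraries, and mmu-miR-384-3p was at 0 in 87. At month 1 miR-30c-1-3p (-0.76, SE 0.22, adjusted p = 0.0209) and miR-30b-3p (-0.51, SE 0.18, adjusted p = 0.0442) were lower in CM mice. miR-30c-1-3p, the only arm that marks the Mir30c-1 gene, was also lower at month 3 (-0.44, SE 0.13, adjusted p = 0.0213) and in the sums over months 1 to 4 (-0.51, SE 0.13, adjusted p = 0.00911). miR-30d-3p was lower at month 2 (-0.74, SE 0.22, adjusted p = 0.0353). miR-30c-2-3p was called at none of months 0 to 6 and not in the sums, and in edgeR it had an unadjusted p under 0.05 at month 3 alone of these (-0.86, SE 0.33, adjusted p = 0.0675).

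The validation cohort allowed a comparison of all members at point 5 alone. The levels there are the authors' deposited CPM and are not on the scale of the training cohort. miR-30a-5p had 1887 to 7264 CPM (median 3029) in 6 CM and 3303 to 6958 (median 4243) in 6 Ctrl mice. miR-30b-5p had 12050 to 74295 CPM (median 45043) in CM and 27883 to 61968 (median 49078) in Ctrl mice, and miR-30a-3p 316 to 1110 (median 518) against 352 to 938 (median 607). The arms overlapped for these members. By limma on log2(CPM + 1), the differences were -0.36 (SE 0.32) for miR-30a-5p, -0.24 (SE 0.37) for miR-30b-5p, -0.12 (SE 0.34) for miR-30a-3p, -0.21 (SE 0.36) for miR-30c-5p, 0.11 (SE 0.27) for miR-30d-5p, 0.05 (SE 0.33) for miR-30e-5p and 0.22 (SE 0.32) for miR-30e-3p. None was called and none had an unadjusted p under 0.05, and over all miRNAs limma called 0% of 930, with 54 at an unadjusted p under 0.05. edgeR on the recovered reads called none of the members. Lowest in 5 of the 7 members was CM mouse 2718, which had the fewest reads (1645456).

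At the other points the members were near the limit of detection. Among the 90 libraries, miR-30a-5p had no read in 71, miR-30b-5p in 67, miR-30a-3p in 83 and miR-30e-3p in 65, and their highest counts were 4, 3, 1 and 3 reads. miR-30c-5p, miR-30d-5p and miR-30e-5p had no read in 40, 44 and 35, and their highest counts were 9, 27 and 7 reads. The counting error of such few reads is large, and which size of difference could have been detected was not tested. Between 1 and 5 members could be tested at points 1 to 4, 6 and 7, and none was called by limma, nor had any an unadjusted p under 0.05. The share of all miRNAs called was 0%, 2.78%, 0%, 0%, 0% and 0% at these points. For 5 CM mice point L could be compared with point 1. No member was called by limma, and 18.1% of 166 miRNAs were. Of the 5 members tested, 1 had an unadjusted p under 0.05 in limma, as had 37.3% of all miRNAs tested. The most reads were of miR-30d-5p. From point 1 to point L it had 2 and 4 reads in mouse 2690, 1 and 15 in mouse 2708, 1 and 3 in mouse 2718, 2 and 27 in mouse 2719, and 1 and 5 in mouse 2731, a log2 difference of 1.66 (SE 0.86, limma, adjusted p = 0.17). More reads were counted at L in 5 of 5 mice, although the libraries were smaller there. Their totals were 2547 to 16945 reads at L and 23946 to 40253 at point 1. Yet in 5 of 5 mice a read stood for fewer deposited CPM at L than at point 1. The size of the log2 difference therefore rests on the deposited scaling. The change relative to total reads was not tested.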

How the data were processed

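The authors sequenced small RNA libraries of PBMC from a training and a validation cohort. Per the study's methods, 3′ adapters were trimmed with cutadapt, reads over 16 bases were aligned to mm9 with Bowtie and mature miRNAs were counted. The submitters' processing notes name GRCm38 instead. The authors' raw counts of the training cohort were deposited as whole numbers made with mirTOP at settings not stated. The deposited CPM tables of both cohorts hold a TMM-scaled signal that the authors made in edgeR. Of its low values (up to 20 reads), 100% of 74447 in training and of 27817 in validation were whole multiples of 1 read within 0.02 reads, and the whole reads were recovered from it. edgeR on these reads called 147 of 468 training miRNAs at month 1, and none of the members at validation point 5. No column held comparisons made by the authors, and groups came from the sample labels.

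Training counts were tested with edgeR 4.0.16 (quasi-likelihood, TMM, filterByExpr, R 4.3.3) on the libraries compared, with DESeq2 1.42.0 as an alternative. Standard errors were the log2 fold change over the square root of F. Validation CPM was tested with limma-trend 3.58.1 after log2(CPM + 1), leaving out miRNAs that reached 1 CPM in fewer libraries than the smaller group had. This scale understates changes of low miRNAs. Ratios were tested in Python 3.11.15 with scipy 1.17.1. All tests were two-sided. The plain edgeR, DESeq2 and limma fits of CM against Ctrl were tried on counts simulated from the month 1 libraries. The other designs and the permutation test were not tried on simulated data. Other alternatives were raw library sizes, no filter, sex or the G number as a covariate, a pseudocount of 10, leaving out mice and the mouse as replicate block. Recovered reads, and leaving out mice 3336 and 3368, were chosen after seeing the data.

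The members, marker lists and rules were chosen with earlier results of these data known. Named were the 7 members, the rest of the family and, per member, the 3 miRNAs with the highest Pearson r at a mean of 10 CPM or more. Libraries of a mouse were paired by its number in the labels. Between month 0 and month 1, deviations from group means correlated within mice at -0.13 to 0.14 (CM) and -0.27 to 0.097 (Ctrl) over 335 miRNAs. Depth limits precision by counting error only, and PCR copies were not removed.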

Additional observations from a re-analysis of the deposited data

Results flagged for a closer look

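For each of the 7 members, 18 groups of 5 to 7 libraries (an arm and month) were looked at, and 12 of all these groups held a library that stood apart from the rest of its group, where chance alone gives about 1 in 20 groups. Of these, 4 were in Ctrl mouse 3349. At month 6 it had 7663 CPM of miR-30a-5p and 168.7 CPM of miR-30a-3p, with an erythroid sum of 341190 CPM, the highest of its group. At month 2, in the library with the lowest total of the cohort (1792809 counts), it had 2837 CPM of miR-30d-5p and 10740 CPM of miR-30e-5p, each the lowest of the training cohort. CM mouse 3336 stood apart in 3 groups, with 34394 CPM of miR-30e-5p at month 1, the highest of the cohort, and with 619.6 and 6314 CPM of miR-30c-5p at months 5 and 6, values that lie in the separate ranges of that miRNA (5155 and 8404 in the deposited CPM). Ctrl mouse 3335 had 5440 CPM of miR-30b-5p and 677.7 CPM of miR-30e-3p at month 10. miR-30d-5p stood apart in CM mouse 3357 at month 2 (8587 CPM), Ctrl mouse 3342 at month 6 (13725 CPM) and Ctrl mouse 3339 at month 8 (11555 CPM).

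The change from month 0 to month 1 differed between the arms, by a test of the difference itself in edgeR, for miR-30a-3p (2.11 on the log2 scale, higher in 7 of 7 CM mice) and miR-30a-5p (1.76, higher in 7 of 7 CM mice). With the mouse as replicate block, and without mice 3336 and 3368, neither difference was called. In the fit that called them, 3 of 5 erythroid miRNAs were called in the same direction. Of 12 alternative settings, 7 called the difference of miR-30a-3p and only 2 that of miR-30a-5p. The late change differed for miR-30a-5p (-1.78, lower in 6 of 7 CM and higher in 7 of 7 Ctrl mice) and miR-30b-5p (-0.79, lower in 7 of 7 mice of each arm), of which the second was no longer called with the block (adjusted p = 0.0589). The second was called in only 4 of 10 alternative settings.

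The library of CM mouse 3336 at month 6.5 entered no comparison. It held 10945 CPM of miR-30a-5p and 371.4 CPM of miR-30a-3p, above every Ctrl library of the cohort, whose highest values were 9414 and 219 CPM. Its erythroid sum was 377667 CPM and its miR-30b-5p, at 829 CPM, was the lowest of the cohort. At month 7 the same mouse had 1245 CPM of miR-30a-5p and 62083 CPM of the erythroid sum.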

How the results depend on the processing

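Among 26 summary results (22 counts of members called and 4 ratios), no ratio changed sign, 40 alternative counts moved by over 1.5 times or from 0, 2 tested ratios passed the threshold and 2 no longer did, leaving out single mice aside. Among single members, the directions that DESeq2 alone called for miR-30c-5p at month 0 (1.46) and miR-30d-5p in the CM last library (0.37) turned in the recovered reads (-0.25 and -0.20, not called). At month 0 DESeq2 called 1 member, and at month 1 the G number within the month left 0. At month 2 the recovered reads called 1. At month 3, where no member was called, DESeq2 and limma on the deposited CPM called 2 each and recovered reads 3, while raw library sizes, recovered reads without mice 3334 and 3335, and both fits over all training libraries with the G number called 1 each. At month 5 leaving out mice 3334 and 3335 gave 3 calls in either table, with 10.4% and 13.2% of all miRNAs called. Sums over months 1 to 4 had 1 call in recovered reads without these mice. For CM month 1 against month 0 (2 calls), raw library sizes, no filter and the deposited CPM left 1 each, and leaving out mice 3336 and 3368 left 0 in either table. For the CM last library (1 call), DESeq2, the deposited CPM, recovered reads and recovered reads without mice 3334 and 3335 gave 2 each, and for Ctrl month 6 DESeq2 gave 4. For the change to month 1 (2 calls), raw library sizes, no filter, recovered reads and sex left 1 each, and the deposited CPM and leaving out mice 3336 and 3368 left 0. For the late change (2 calls), no filter and leaving out mice 3334 and 3335 left 1 and recovered reads gave 4.

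With the mouse as replicate block, members called were 0 for CM month 1 against month 0 in both tables, 0 for the change to month 1 in both tables, 1 for Ctrl month 6, 1 for the late change and 2 for the CM last library in recovered reads. At validation point L the block changed no call. The deposited CPM moved the ratios to -0.43 (arms of Mir30a) and -0.53 (miR-30e-5p to miR-30c-5p), past the threshold, and without mice 3334 and 3335 those of -0.24 (arms of Mir30e) and 0.37 (miR-30d-5p to miR-30b-5p) were no longer past it. The causes were not tested. Leaving out each mouse in turn gave 3 to 3 calls at month 1, 0 to 1 at month 2 (1 without mouse 3349 or 3370), 0 to 2 at month 3 (changed without mouse 3334, 3336, 3338, 3341 or 3342), 0 to 0 at months 4 and 6, 0 to 3 at month 5 (3 without mouse 3335), 2 to 3 in the sums, 1 to 1 for the CM last library and 0 to 0 at point L. The G number could not be fitted within month 4. Outside point 5, validation depth limited every statement.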
